A study of Rattus norvegicus with 9 samples.

Results

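The genes described here are 40 genes of the blood and lymphatic vessel lining, chosen by symbol: the angiopoietin receptors and ligands, surface and junction proteins of endothelial cells, haemostasis and adhesion genes, transcription factors of the endothelial lineage, and lymphatic and Notch pathway genes. Of the 40, 37 had a probe set carrying that symbol alone, and 35 were tested among 10973 genes. Cdh5, Robo4 and Cd34 had no such probe set. Angpt1 and Sele had one that did not reach the minimum signal. Where a gene had several probe sets, the one with the highest mean was used.

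Endothelial cells line every vessel and are recognised by a shared set of surface proteins such as PECAM1, endomucin and TIE1 and by transcription factors of the ETS and SOX families. The angiopoietins are secreted ligands of the receptor tyrosine kinase TEK (TIE2): ANGPT1, made largely by mural and stromal cells, activates TEK and stabilises vessels, while ANGPT2, released by endothelial cells, acts on the same receptor in a context-dependent way, often against ANGPT1. TIE1 is the related receptor that pairs with TEK. The uterus remodels its vessels in each reproductive cycle, and endometrial vessels respond to ovarian hormones.

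Uterine tissue of female rats was hybridised to Affymetrix expression arrays, 3 per group. Control rats were left untreated. Model rats received 0.5 U per rat of the gonadotropin PMSG intraperitoneally and the same amount of hCG 48 h later, which induces ovulation. Treatment rats received the same injections and electroacupuncture at the Guanyuan and Sanyinjiao points, in 15 min sessions over the 7 days that preceded induction, with sessions kept up while it ran. The study had 18 rats, 6 per group, acclimatised for 7 days. Nothing in the labels ties an array to 1 rat, so p-values measure the spread between arrays. The comparisons ask what induction changed in the uterus and what changed when electroacupuncture was added. The labels give no strain, age or uterine layer.

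Values were intensities deposited by the authors, with a median per array between 23.5 and 23.96. Fold changes are differences of log2(intensity + 16), so that changes of dim genes are understated, and were tested with limma across all 10973 genes with Benjamini-Hochberg adjustment and a threshold of 0.05. Levels of different genes were not compared, because each probe set has its own response. In bulk tissue, fewer endothelial cells and less RNA per endothelial cell cannot be told apart.

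A pair of arrays stood apart for these genes. Treatment 32 was the lowest of the 9 arrays for 27 of 35 genes (77.1%), against 15.9% of all genes tested. That count uses a single probe set per gene. For Klf2 and Fli1, both counted, a filtered probe set that was not used had its highest value in treatment 32 (172 and 71.9). The remaining filtered probe sets of both genes were lowest there. Control 43 was the highest for 20 of 35 (57.1%), against 16.8% of all genes. Control 43 also correlated less with control 41 and control 42 over all genes (r = 0.887 and 0.916) than with model 21 (r = 0.972), a description of arrays that share probe sets and processing. Of 8 genes that mark uterus, 7 were tested (Esr1 was not), and their summed intensity was lowest in treatment 32, 689 where the other arrays ran from 788 to 1484. The genes of this list did not move together: 2 of 7 were lowest in treatment 32 and 2 of 7 in treatment 33. Pgr read 72.1 in treatment 32, under control 41 (108) alone, and Wnt7a 22.1, under model 22 (27.2) alone. Each comparison is therefore given with and without these arrays.

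**Figure D1:**
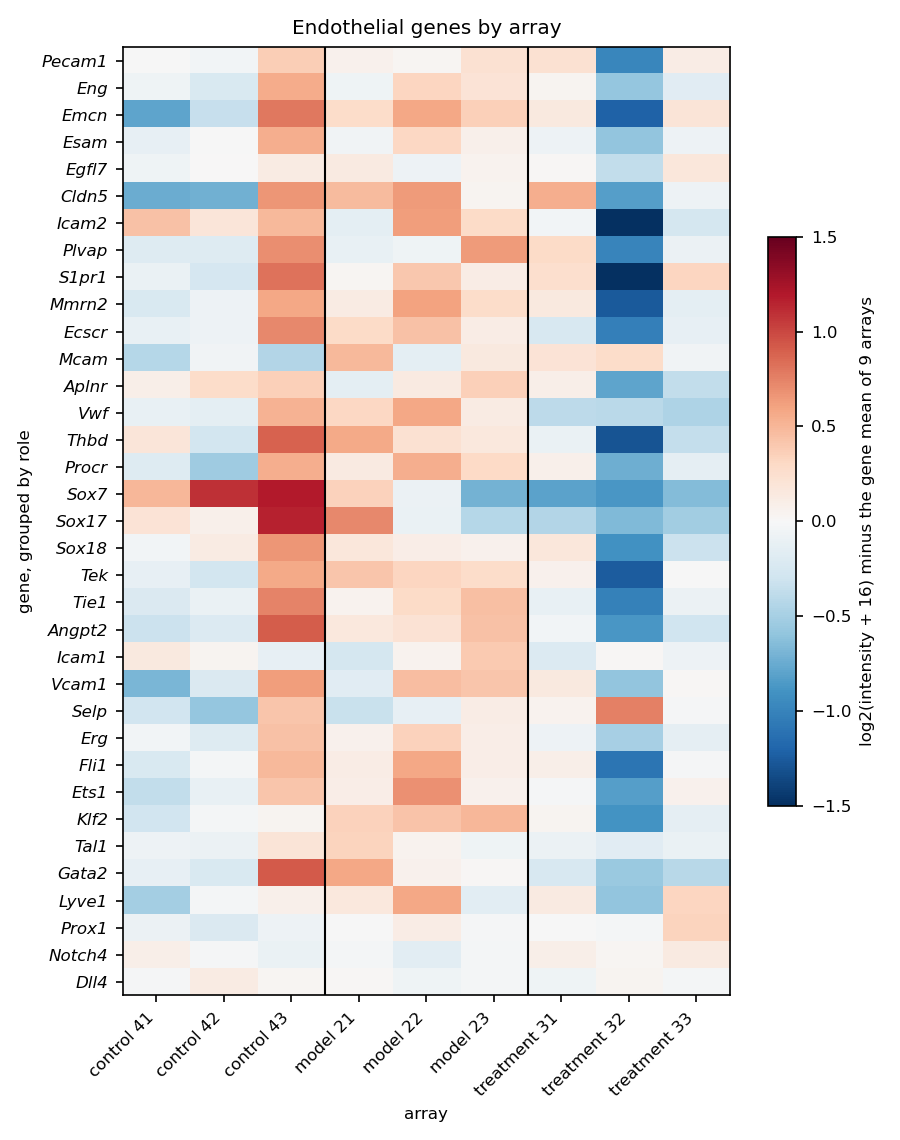
Deviation of log2(intensity + 16) from each gene's mean over 9 arrays, for the 35 tested genes (rows, grouped by role) in the 9 arrays (columns); colours saturate at 1.5 in either direction. The treatment 32 column is blue for most rows and the control 43 column is red for most rows, the lowest array for 27 genes and the highest for 20.

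The only gene of the 35 called in a comparison of all 9 arrays was Sox7, a SOXF transcription factor that acts with SOX17 and SOX18 in endothelial specification and arterial and venous identity. Its intensity was 232, 357 and 385 in control 41, control 42 and control 43. In the model arrays 21, 22 and 23 it was 208, 149 and 91.1. Treatment arrays 31, 32 and 33 gave 84.1, 79.6 and 95.3. The control arrays were all above the model arrays and all above the treatment arrays, while treatment 31 and treatment 32 lay just under model 23 and treatment 33 just above it. The mean log2 level was 8.38 ± 0.37 in controls, 7.31 ± 0.53 in model and 6.67 ± 0.11 in treatment arrays (SD, n = 3 each).

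Sox7 fell by 1.71 on the log2 scale (SE 0.27) in treatment against control, with an adjusted p of 0.0428 in limma. It was 1 of 35 genes called in that comparison, beside 0.51% of all genes tested. In model against control its log2 fold change was -1.08 (SE 0.27, adjusted p = 0.252), and in treatment against model -0.63 (SE 0.27, adjusted p = 0.339). The call rested on small margins: over the 9 fits that each left out 1 array, the fold change stayed between -1.92 and -1.57, and the gene was called in 3 of them, those without control 43, model 21 or model 23. Without control 41, control 42, model 22, treatment 31, treatment 32 or treatment 33 the adjusted p was 0.0831, 0.131, 0.083, 0.18, 0.142 and 0.129. It was also lost with quantile normalization (adjusted p = 0.0565) and without the filter on dim probe sets (adjusted p = 0.0512).

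Sox7 did not follow the other endothelial genes from array to array. A mean deviation was taken over 7 core genes, Pecam1, Erg, Tie1, Tek, Egfl7, Esam and Emcn. Sox7 lay above that mean by 0.69, 1.23 and 0.68 (log2) in control 41, control 42 and control 43. In model 21, model 22 and model 23 the difference was 0.21, -0.34 and -0.93. In treatment 31, treatment 32 and treatment 33 it was -0.84, -0.03 and -0.68. Relative to these genes Sox7 was therefore high in every control array and lower in all 6 gonadotropin-treated arrays, which is a description with no test. SOX7 is also made outside the endothelium. Epithelial markers differed among the controls: their summed intensity was 19720, 14454 and 4661 in control 41, control 42 and control 43, while the claudins Cldn3 (513, 459 and 1047) and Cldn4 (83.5, 47.6 and 134) were highest in control 43. Their part in the Sox7 values was not tested.

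Sox17, which drives arterial identity and is also made in uterine epithelium, had intensities of 352, 322 and 698 in control, 510, 282 and 222 in model, and 220, 186 and 206 in treatment arrays. All 3 treatment arrays were below every control and every model array, by a small gap between treatment 31 (220) and model 23 (222). Control 43 and model 21 were the highest. Its log2 fold change in treatment against control was -1.02 (SE 0.34, adjusted p = 0.203 in limma) and -0.68 without control 43. Sox18, which with SOX7 and SOX17 also acts in lymphatic development, ran from 52.5 to 96.2 in controls, 57.8 to 63.7 in model and 21.6 to 63.5 in treatment arrays. Its groups overlapped, with treatment 32 the lowest, and no comparison of Sox18 passed the threshold (adjusted p between 0.299 and 0.837).

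**Figure D2:**
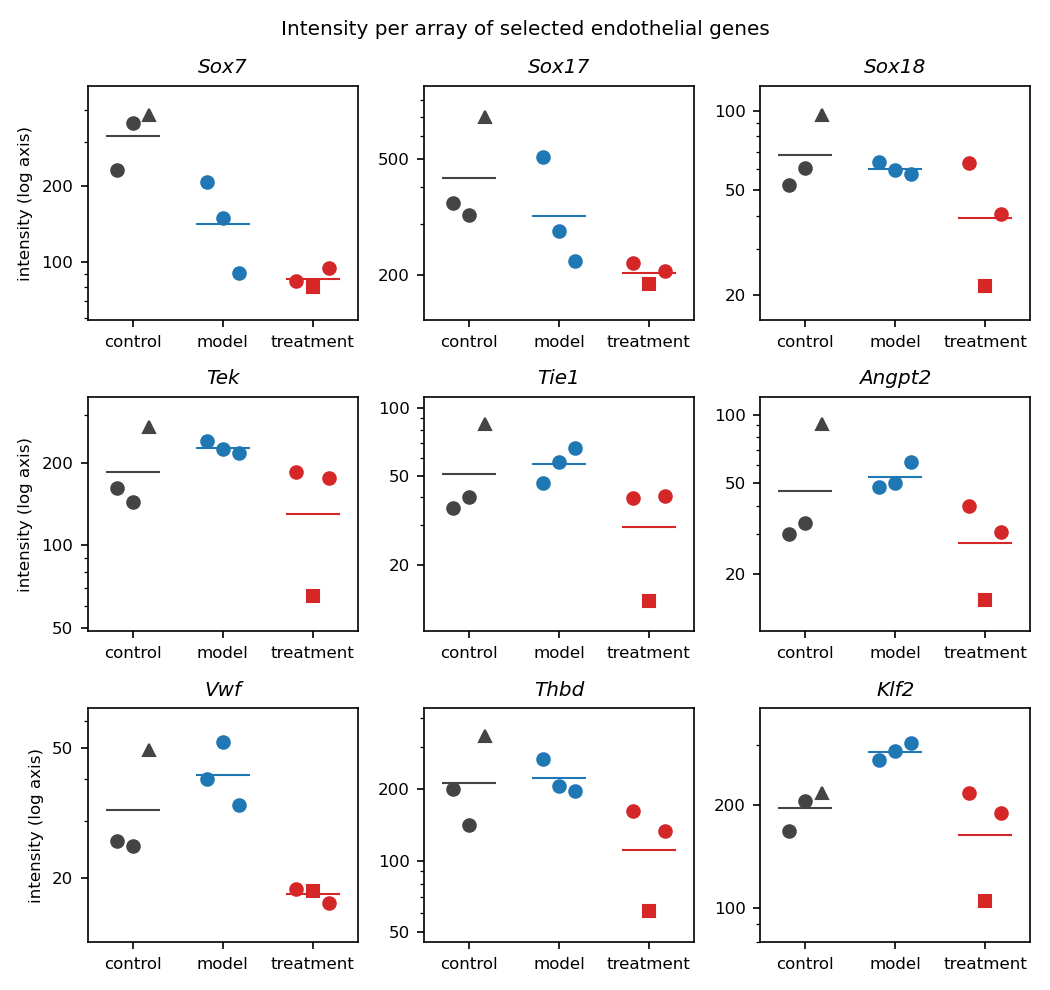
Intensity per array (log axis) of 9 endothelial genes in control, model and treatment arrays; each point is 1 array, the triangle is control 43, the square is treatment 32, and the line is the group mean of log2(intensity + 16) turned back to intensity. Sox7 is highest in the 3 control arrays, while Tek, Tie1 and Angpt2 have 1 high control array and 1 low treatment array.

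None of the 3 tested genes of the angiopoietin system was called, and each was highest in control 43 and lowest in treatment 32. Tek, the angiopoietin receptor, had intensities of 162, 144 and 271 in control 41, control 42 and control 43. The model arrays gave 242, 226 and 218, and treatment 31, treatment 32 and treatment 33 gave 186, 65.1 and 176. The model arrays lay close together and above all treatment arrays, whereas control 43 exceeded every other array and treatment 32 was under all of them. Mean log2 levels were 7.65 ± 0.45, 7.93 ± 0.07 and 7.20 ± 0.74 in control, model and treatment (SD, n = 3). The log2 fold change of model over control was 0.28, that of treatment over control -0.46 and that of treatment over model -0.74 (SE 0.35, adjusted p = 0.73, 0.527 and 0.37 in limma).

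Tie1, the partner receptor, had control intensities of 35.9, 40.1 and 85.0, model intensities of 46.5, 57.5 and 66.2, and treatment intensities of 39.8, 13.9 and 40.6. Treatment 32 gave 13.9, below the minimum signal of its array (the 40th percentile), and all treatment arrays were below all model arrays. Its log2 fold change was 0.12 for model over control, -0.55 for treatment over control and -0.67 for treatment over model (SE 0.31, adjusted p = 0.877, 0.395 and 0.364 in limma). Model against control changed sign for Tie1 when control 41 or control 42 was left out, to -0.06 and -0.003.

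Angpt2, the endothelial ligand, had intensities of 29.9, 33.6 and 91.1 in control arrays. The model arrays gave 48.0, 50.4 and 61.9 and the treatment arrays 39.8, 15.4 and 30.7. Control 43 was above all model arrays while the other controls were below them, and treatment arrays were all below model arrays. The log2 fold change was 0.15 for model over control, -0.53 for treatment over control and -0.67 for treatment over model (SE 0.33, adjusted p = 0.854, 0.434 and 0.374 in limma). Angpt1, the activating ligand, read between 3.2 and 5.1 and reached the minimum on 0 of 9 arrays, so no fold change is given. Without treatment 32 the treatment against control values of Tek, Tie1 and Angpt2 were -0.03, -0.24 and -0.29. Leaving out both control 43 and treatment 32 gave 0.23, 0.06 and 0.10, the opposite sign, none past the threshold.

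The partner proteins of the pathway were looked at through a list of 21 genes, including phosphatases, adaptors, kinases and integrins, of which 17 were tested. None of the 17 was called in any comparison, and 3, 3 and 6 had an unadjusted p under 0.05 when model was set against control, treatment against control and treatment against model. Those are 17.6%, 17.6% and 35.3% of the list, against 12.4%, 17.4% and 14.7% of all genes. Without control 43, 2 (11.8%) were called in model against control, under the 12.6% of all genes called in that fit. Foxo1, the transcription factor that AKT holds in check downstream of TEK, had the log2 fold change with the smallest adjusted p in model against control, 0.75 (SE 0.17, adjusted p = 0.199 in limma). Its 3 model arrays, 222, 174 and 205, were above the controls, 121, 84.3 and 136. Grb14, an adaptor that binds TEK, was at -0.40 and the integrin subunit Itgb1 at 0.39 in that comparison (adjusted p = 0.245 and 0.266). Itgb1 was at 0.34 in treatment against control, and Adam17, a sheddase, at -0.28 (adjusted p = 0.182 and 0.211). Adam17, Pik3ca and Ptpn11 were at -0.33, -0.37 and -0.36 in treatment against model, each with an adjusted p of 0.286. Ptprb, the endothelial phosphatase that removes phosphate from TEK, read 49.5 in treatment 32 and between 123 and 339 in the other arrays.

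Among the 13 surface, junction and signalling genes of endothelium none was called in any of the 3 comparisons. In treatment against control 11 of 13 had a negative log2 fold change, with a median of -0.37, and in treatment against model 13 of 13, with a median of -0.47. Without treatment 32, 7 of 13 were negative against control, with a median of -0.004, and 10 of 13 against model, with a median of -0.18. Icam2, an adhesion protein of resting endothelium, had intensities of 218, 180 and 227 in control, 140, 251 and 195 in model and 152, 42.1 and 128 in treatment arrays. Treatment arrays lay below all controls but overlapped the model arrays, and treatment 32 was the lowest by far. Its log2 fold change in treatment against control was -0.999 (SE 0.38, adjusted p = 0.241 in limma), and -0.53 without treatment 32.

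Aplnr, the apelin receptor, had 38.3, 45.9 and 49.5 in control, 30.1, 40.1 and 49.2 in model and 38.2, 13.5 and 23.5 in treatment arrays. Treatment 31 sat just under the lowest control and the other treatment arrays further down. The log2 fold change in treatment against control was -0.60 (SE 0.22, adjusted p = 0.228 in limma) and -0.38 without treatment 32. Ecscr, an endothelial surface protein of migrating cells, had 152, 156 and 284 in control, 206, 230 and 180 in model and 138, 72.7 and 151 in treatment arrays. All treatment arrays were below all others, by a small gap between treatment 33 and control 41. Its treatment against model value was -0.74 (SE 0.29, adjusted p = 0.319 in limma), and -0.46 without treatment 32.

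Cldn5, the main claudin of endothelial tight junctions, had 63.8, 65.2 and 196 in control, 170, 191 and 122 in model and 180, 59.4 and 110 in treatment arrays. The first 2 controls were under all model arrays while control 43 was above them. Its model against control value of 0.65 (SE 0.45, adjusted p = 0.529 in limma) became 1.12 without control 43 (adjusted p = 0.0784). Mcam, an adhesion molecule of endothelium and mural and smooth muscle cells, had 454, 592 and 450 in control, 864, 553 and 678 in model and 711, 747 and 590 in treatment arrays. It was at 0.46 in model against control and 0.45 in treatment against control (SE 0.18, adjusted p = 0.372 and 0.264 in limma), with overlapping groups, and it was not low in treatment 32.

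The remaining genes of this class shared the low treatment 32 value. Pecam1, the junctional adhesion molecule that marks all endothelium, read 49.0 there and between 108 and 148 in the other arrays. Emcn, the sialomucin of capillaries and veins, read 75.3 there, between 107 and 353 elsewhere. S1pr1, the sphingosine-1-phosphate receptor, read 66.6 there, between 190 and 416 elsewhere, and Mmrn2, an endothelial matrix glycoprotein, 15.1 there, between 47.5 and 96.9. Eng, Esam, Egfl7 and Plvap were also lowest in treatment 32. No comparison of these 8 genes passed the threshold.

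None of the 4 haemostasis genes was called with all 9 arrays. Vwf, which encodes von Willebrand factor, had intensities of 26.0, 25.1 and 49.2 in control, 40.2, 51.9 and 33.4 in model and 18.6, 18.3 and 16.9 in treatment arrays. The 3 treatment arrays were close together and below all others, and treatment 32 did not stand apart. Those values are near the minimum signal of 15.2 to 16.2, so the fold change may be limited at the low end. The log2 fold change was -0.51 for treatment over control and -0.76 for treatment over model (SE 0.18, adjusted p = 0.228 and 0.286 in limma). Vwf was called in model against control only in the fit without control 43, at 0.46 (adjusted p = 0.0467), against 0.25 with all arrays (adjusted p = 0.559).

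Thbd, thrombomodulin, which turns thrombin towards protein C activation, had 201, 141 and 337 in control, 268, 207 and 197 in model and 162, 61.5 and 134 in treatment arrays. Treatment arrays were all below model arrays. Its treatment against model value was -0.90 (SE 0.36, adjusted p = 0.325 in limma), and -0.55 without treatment 32. The other probe set of Thbd that passed the filter gave a smaller difference with all arrays, -0.44. Procr, the protein C receptor, ran from 26.6 in treatment 32 to 87.4 in control 43. Selp, P-selectin, went the other way: its highest value, 60.7, was in treatment 32, and the other 8 arrays ran from 14.3 to 44.4. Icam1 and Vcam1, adhesion molecules induced by cytokines, ranged from 82.4 to 138 and from 18.1 to 68.8, and neither had its lowest value in treatment 32. No comparison of Procr, Selp, Icam1 or Vcam1 passed the threshold.

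Klf2, the transcription factor induced by laminar flow, had 168, 206 and 217 in control, 270, 287 and 303 in model and 217, 105 and 190 in treatment arrays. The model arrays were above all other arrays. Its log2 fold change was 0.51 in model against control and -0.75 in treatment against model (SE 0.22, adjusted p = 0.403 and 0.286 in limma). Klf2 had 3 probe sets that passed the filter, and those not used did not show these differences: they gave -0.09 and 0.10 in model against control and 0.37 and -0.05 in treatment against model. Erg, Fli1 and Ets1, ETS factors of the endothelial programme, and Tal1 and Gata2, shared with blood cells, were all lowest in treatment 32 and had negative log2 fold changes against control, from -0.13 for Tal1 to -0.60 for Gata2 (adjusted p from 0.336 to 0.719). Of the 4 probe sets of Fli1, 1 gave 0.25 against -0.42 for the one used, and the other probe set of Tal1 gave 0.13 against -0.13.

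None of the lymphatic and Notch genes was called. Prox1, the master regulator of lymphatic endothelium, which is dim here, had 20.9, 17.8 and 21.5 in control, 23.2, 26.5 and 22.8 in model and 23.3, 22.6 and 33.7 in treatment arrays. All 6 gonadotropin-treated arrays were above all controls, with log2 fold changes of 0.16 in model and 0.23 in treatment arrays against control (SE 0.10, adjusted p = 0.518 and 0.296 in limma). Lyve1, the hyaluronan receptor of lymphatic vessels and some macrophages, ranged from 36.4 in treatment 32 to 102 in model 22. The arterial Notch receptor Notch4 and ligand Dll4 spanned only 16.5 to 23.8 and 39.5 to 47.2, with log2 fold changes between -0.07 and 0.15.

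As a group, the 35 genes had a median log2 fold change of 0.09 in model against control, with 26 positive and 9 negative, where all genes had a median of 0.02 and 53.5% positive. No gene of the 35 was called, beside 0.0273% of all genes, and 2 (5.71%) had an unadjusted p under 0.05 against 12.4% of all genes. Groups did not overlap for 3 genes, Sox7, Klf2 and Prox1, which is 8.57% against 14.5% of all genes, so that count was not above the background.

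In treatment against control the median was -0.33, with 29 of 35 negative, against -0.04 and 57.8% negative over all genes. With Sox7 counted, 7 genes (20%) had an unadjusted p under 0.05, against 17.4% of all genes. Groups did not overlap for 9 genes (25.7%), near the 23.3% of all genes: Prox1 was higher, and Vwf, Sox7, Sox17, Icam2, Tal1, Gata2, Ecscr and Aplnr were lower. In treatment against model the median was -0.50, with 31 of 35 negative, against -0.05 and 61.1% negative over all genes. No gene was called, among the 35 or among all genes (0%), and 6 of the 35 (17.1%) had an unadjusted p under 0.05 against 14.7% of all genes. Groups did not overlap for 16 genes (45.7%), 15 of them lower, beside 28% of all genes. The comparisons share arrays, so their values are given side by side and not as separate support.

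**Figure D3:**
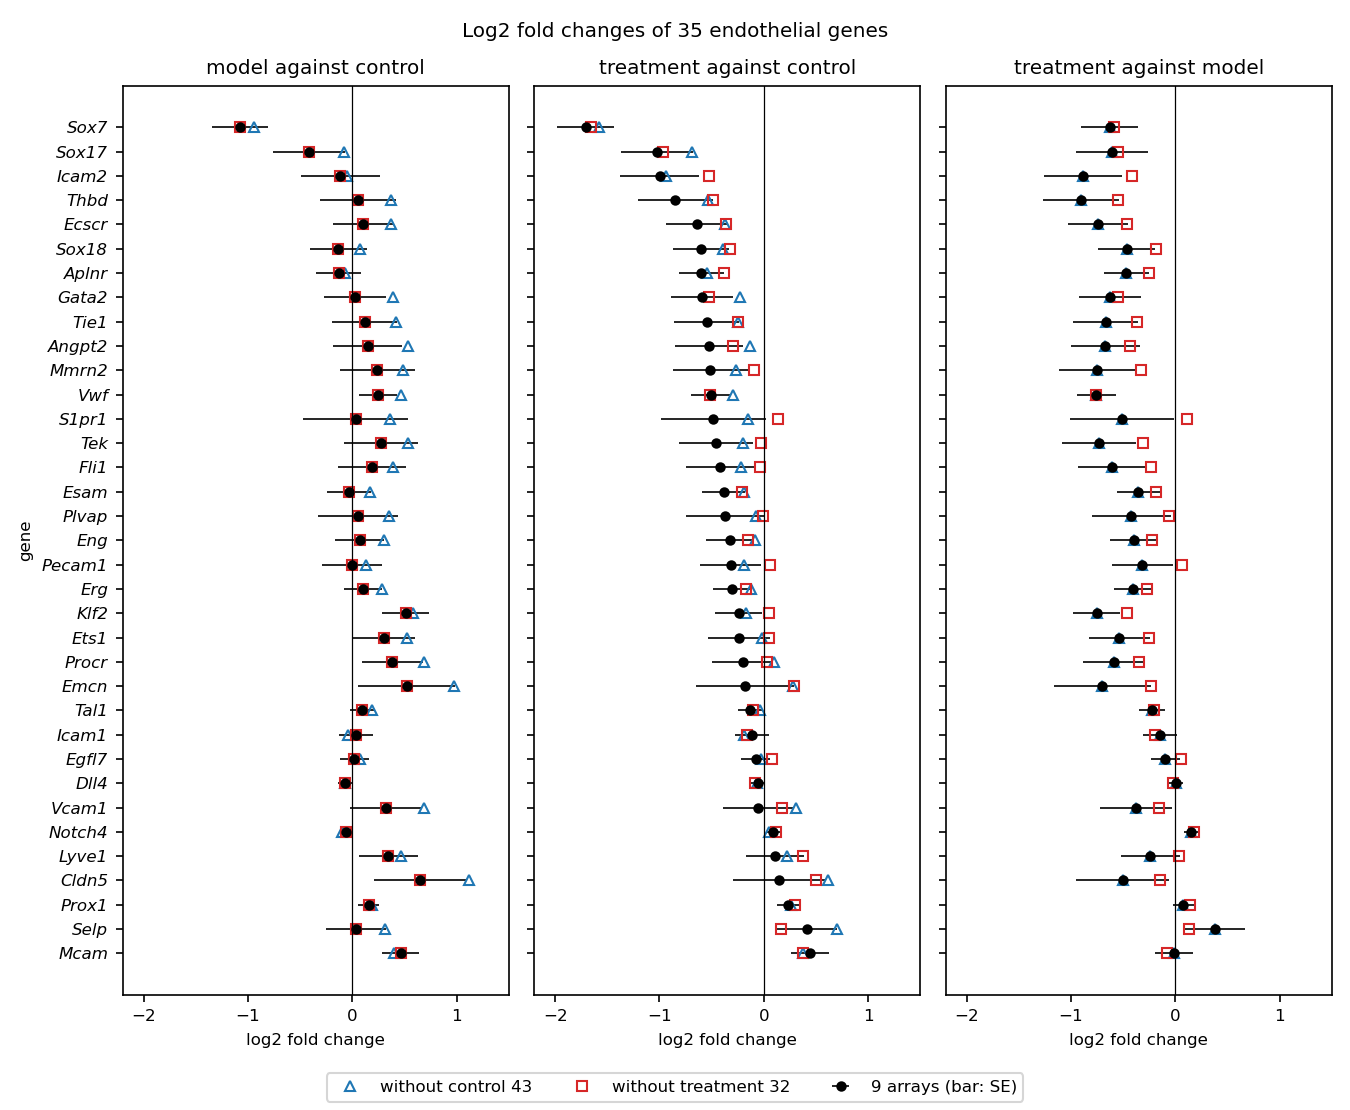
Log2 fold change of each of 35 genes in the 3 comparisons, with 9 arrays (black, bar: SE), without control 43 (blue triangle) and without treatment 32 (red square). Without treatment 32 most genes move towards 0 in both treatment comparisons, while Sox7 in treatment against control stays between -1.71 and -1.57.

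These medians moved when the arrays that stood apart were left out. Without treatment 32 the median in treatment against control went from -0.33 to -0.09, and in treatment against model from -0.50 to -0.23 with 28 of 35 negative. That fit called 0 of the 35 genes in each comparison, beside 0.00911%, 0.1% and 0% of all genes in model over control, treatment over control and treatment over model. In the same order, 3, 5 and 2 of the 35 (8.57%, 14.3% and 5.71%) had an unadjusted p under 0.05, against 11.1%, 11.8% and 7.51% of all genes. Without control 43 the median was 0.36 in model against control and -0.15 in treatment against control. That fit called 1 gene, Vwf, in model against control beside 12.6% of all genes, and 1, Sox7, in treatment against control beside 6.56%. It called none of the 35 in treatment against model, beside 0% of all genes. At an unadjusted p under 0.05 that fit had 7 of the 35 (20%) in model against control, against 31.2% of all genes. In treatment against control it had 4 (11.4%), against 24.4% of all genes. In treatment against model it had 14 (40%), against 21.5% of all genes.

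With both arrays left out, a choice made after seeing that these genes were extreme there, 6 genes were called higher in model against control: Tek at 0.53, Angpt2 at 0.54, Emcn at 0.97, Cldn5 at 1.12, Klf2 at 0.58 and Procr at 0.69 (adjusted p from 0.0152 to 0.0376 in limma). Over all genes 11.9% were called in that fit. Removing extreme arrays lowers the spread by construction, so these calls describe the remaining arrays only. In treatment against control that fit called 0 of the 35, Sox7 included (-1.53, adjusted p = 0.0577), beside 4.9% of all genes. There 6 (17.1%) had an unadjusted p under 0.05, against 22.4% of all genes, and the median was 0.10 with 22 positive. In treatment against model it called 0 of the 35, beside 0% of all genes, and 10 (28.6%) had an unadjusted p under 0.05, against 12.8% of all genes.

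The median spread among arrays of 1 group was larger for these genes than over all genes tested. The median residual SD was 0.41 (log2) for the 35 genes and 0.15 for all genes. The median SD of the 35 genes was 0.38 in control, 0.21 in model and 0.43 in treatment arrays, where all genes had 0.15, 0.12 and 0.11. The model group was thus the most even of the 3 for endothelial genes. Wide spread was not particular to them. The epithelial list had median deviations of 1.40, 0.98 and -0.99 in control 41, control 42 and control 43, where the 35 genes had -0.11, -0.09 and 0.54.

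A second list of 52 endothelial genes that are not among the 40, of which 44 were tested, was read the same way. Treatment 32 was the lowest array for 26 of 44 (59.1%) and control 43 the highest for 15 (34.1%). Their median log2 deviation from each gene's mean was -0.51 in treatment 32, the lowest array, and 0.24 in both control 43 and model 22, the latter slightly the higher and with the highest summed intensity (8937 against 8299), where the 35 genes had -0.79 and 0.54 and all genes lay between -0.05 and 0.03. None of the 44 was called in any comparison with 9 arrays, with 3, 10 and 10 at an unadjusted p under 0.05 for model over control, treatment over control and treatment over model. Those are 6.82%, 22.7% and 22.7% of the list, against 12.4%, 17.4% and 14.7% of all genes, and without treatment 32 the counts were 6, 3 and 1. Without control 43, 3, 1 and 0 of the 44 were called (6.82%, 2.27% and 0%), under the 12.6% and 6.56% of all genes in the comparisons with control. Leaving out control 43 and treatment 32 together, a choice made after seeing the data, gave 7, 1 and 0 calls. Those are 15.9%, 2.27% and 0% of the list, against 11.9%, 4.9% and 0% of all genes. At an unadjusted p under 0.05 that fit had 43.2%, 20.5% and 18.2% of the list, against 30.8%, 22.4% and 12.8% of all genes. With all 9 arrays, the gene of this list with the smallest p in model against control was Sparcl1 (1.46, adjusted p = 0.351 in limma). For treatment against control, still with 9 arrays, these were Lmo2 (-0.82, adjusted p = 0.124) and Ly6c (-0.95, adjusted p = 0.163). For treatment against model it was Arhgef15 (-0.32, adjusted p = 0.286), all from limma.

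Within the treatment group, treatment 32 was lower than the mean of treatment 31 and treatment 33 for 30 of 35 genes, with a median difference of -0.70, where all genes had -0.002. The difference was -1 or lower for 10 of 35 genes (28.6%) and for 0.62% of all genes. The largest differences were -1.87 for S1pr1, -1.42 for Icam2, -1.39 for Emcn, -1.28 for Tek and -1.26 for Mmrn2. Mmrn2 was below the minimum signal in treatment 32 (15.1, minimum 16.1), as were Tie1, Angpt2 and Aplnr, so the size of their differences is limited by the floor. Sox7, Sox17, Vwf, Tal1, Gata2, Prox1, Notch4, Dll4, Mcam and Icam1 differed by less than 0.25 between treatment 32 and the other treatment arrays. Of these, Vwf, Notch4 and Prox1 were dim in treatment 32 (18.3, 20.9 and 22.6, minimum 16.1), so the floor also limits any drop of theirs.

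The set of RefSeq promoters used here (assembly GRCr8) had entries for 17 of the 35 genes, and none for Sox7 or Tek. The 250 bases before the gene start are shown for S1pr1, Emcn and Mmrn2, the genes with the largest drop in treatment 32 that have an entry, and for Tie1, the angiopoietin receptor family member that has one. Capitals mark the letters GGAAG, the core of ETS factor sites, and ACAAT, the core of SOX factor sites, on either strand, so that CTTCC is GGAAG read on the other strand; no marked motifs overlap. S1pr1 is at chr2:206314071-206314320 on the minus strand, Emcn at chr2:228564289-228564538 on the plus strand, Mmrn2 at chr16:9711955-9712204 on the plus strand and Tie1 at chr5:137304982-137305231 on the minus strand, each printed 5′ to 3′ along the gene.
S1pr1: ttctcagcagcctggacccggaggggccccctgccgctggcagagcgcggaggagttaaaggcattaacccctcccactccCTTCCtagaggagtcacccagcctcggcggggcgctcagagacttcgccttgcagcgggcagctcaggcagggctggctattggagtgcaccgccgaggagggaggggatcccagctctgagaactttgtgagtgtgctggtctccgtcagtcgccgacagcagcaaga
Emcn: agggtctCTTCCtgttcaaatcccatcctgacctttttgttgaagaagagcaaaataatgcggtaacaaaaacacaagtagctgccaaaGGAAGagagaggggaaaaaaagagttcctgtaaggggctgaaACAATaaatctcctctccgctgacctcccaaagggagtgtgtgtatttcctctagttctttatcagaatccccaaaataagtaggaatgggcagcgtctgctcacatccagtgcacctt
Mmrn2: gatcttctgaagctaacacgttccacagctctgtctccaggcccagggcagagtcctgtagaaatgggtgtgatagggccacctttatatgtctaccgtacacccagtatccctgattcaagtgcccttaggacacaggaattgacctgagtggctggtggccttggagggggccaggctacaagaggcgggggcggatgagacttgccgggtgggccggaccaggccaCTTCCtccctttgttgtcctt
Tie1: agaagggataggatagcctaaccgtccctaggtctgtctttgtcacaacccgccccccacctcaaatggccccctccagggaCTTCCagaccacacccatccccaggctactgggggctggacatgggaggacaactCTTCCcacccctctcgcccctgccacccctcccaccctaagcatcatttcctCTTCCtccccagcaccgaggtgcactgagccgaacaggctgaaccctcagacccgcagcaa

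GGAAG occurred once in the stretches of S1pr1 and Mmrn2, in 2 places in Emcn and in 3 in Tie1. Over all 17 genes with an entry, 14 (82.4%) held GGAAG in these 250 bases, against 63.3% of 33469 promoters of the same length. ACAAT was held by 4 of 17 (23.5%), Emcn among them, against 30.0%, and AGATAA, the core of GATA factor sites, by 1 of 17 (5.88%), against 10.3%. A gene was counted if any of its listed promoters held the letters, whereas the background counts each promoter on its own. The shares of genes and of promoters are thus not the same measure. These are letter matches in a fixed window and are not evidence of binding.

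Markers of other cell types were set beside these values. In treatment 32 the median deviation of the smooth muscle list was 0.19 (9 of 9 genes tested, summed intensity 24732, within the range 13480 to 25367 of all arrays), and that of the mural list 0.00 (7 of 8). It was -0.42 for fibroblast and stroma (7 of 7, summed 6527, where treatment 31 and treatment 33 had 10910 and 10118), -0.76 for leukocytes (9 of 11, summed 1137 against 1586 and 1550) and 0.11 for epithelium (12 of 12, summed 6333 against 4068 and 6067). The red cell list (2 of 5 tested) was highest in treatment 32, with Hbb, a haemoglobin chain, at 988 and between 198 and 686 elsewhere. The stromal and leukocyte sums were thus below those of the other treatment arrays. Control 41 had a lower stromal sum (6220) and model 21 a lower leukocyte sum (1042). By median deviation, however, treatment 32 was the lowest array for leukocytes (-0.76, against -0.59 in model 21), with 5 of 9 genes lowest there. Control 41 was the lowest for stroma (-0.73). Cd14 of the leukocyte list was highest in treatment 32 (350). Within the mural list Rgs5 was at 47.9 there and between 58.5 and 329 elsewhere. The part of these cell types in the endothelial values was not tested.

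Control 43 differed from its group in the opposite way for the epithelial and stromal lists, but not for the leukocyte list. Epithelial genes had a median deviation of -0.99 there, against 1.40 in control 41 and 0.98 in control 42. Stromal genes had 0.32 there, against -0.73 and -0.18. Leukocyte genes had -0.34 there, against 0.62 and 0.10, so they were low in control 43 as in treatment 32. The model and treatment arrays had epithelial medians between -0.996 and 0.11. The part of tissue makeup in the endothelial values was not tested. The 3′ to 5′ ratio of the Actb control probe sets was 7.84 in control 43, the highest of a range from 5.07, and 5.95 in treatment 32; that of Gapdh was 1.30 and 1.24, within a range of 1.10 to 1.39. The part of RNA quality in these results was not tested.

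**Figure D4:**
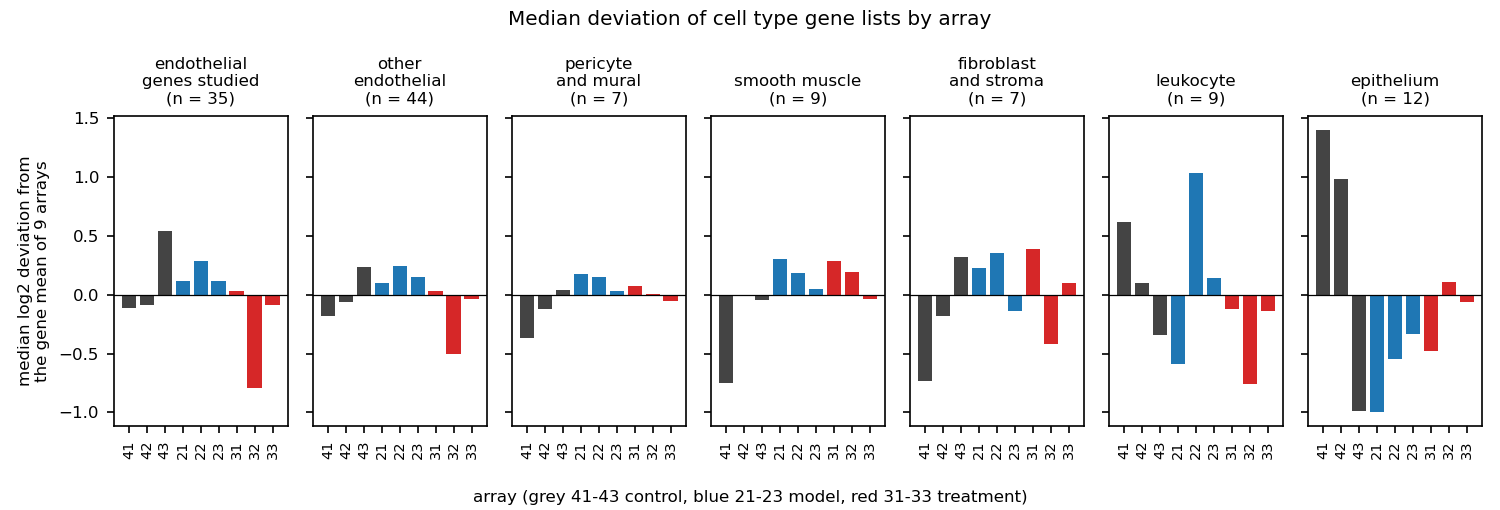
Median deviation of log2(intensity + 16) from the gene mean of 9 arrays, for 7 gene lists (panels, with the number of genes tested) in each array (bars; grey control, blue model, red treatment). Endothelial lists are lowest in treatment 32 (-0.79 and -0.51), and so is the leukocyte list (-0.76). Stromal genes are also low there (-0.42) but lower in control 41 (-0.73), and smooth muscle genes are not low (0.19). Epithelial genes separate control 43 (-0.99) from control 41 and control 42 (1.40 and 0.98).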

How the data were processed

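Total RNA of uterine tissue, extracted with Trizol and labelled with biotin per the labels' protocols, was hybridised to 9 Affymetrix arrays. The authors deposited 1 intensity per probe set and array, made with MAS5 per the submitters' processing notes; version and scaling: not given in the sources used here. From 31099 probe sets, 57 Affymetrix controls were removed. Of the remaining 31042, 20826 carried 1 gene symbol, 436 several and 9780 none, by the platform annotation; symbols of 20758 were matched to RefSeq names (GRCr8) through Entrez identifiers.

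From the deposited intensity values, log2(intensity + 16) was taken with no further scaling. Probe sets at or above the 40th percentile of their own array on at least 3 of 9 arrays were kept (19326, of which 14553 had 1 symbol), and each of 10973 genes was represented by its probe set of highest mean. A filter on 3 arrays can keep a gene for 1 high group. All 9 arrays entered 1 fit in limma 3.58.1 (under R 4.3.3), using lmFit, then eBayes with its trend option, on 6 residual degrees of freedom, with Benjamini-Hochberg adjustment over all genes for each comparison. The procedure was tested on simulated data with independent noise for each gene and array. Shifts shared by many genes on an array, as in treatment 32 and control 43, were not simulated. The number of arrays limits the precision. Genes given in full are Tek, Tie1, Angpt1, Angpt2, each called gene and the 5 with the smallest p in each comparison. The genes, lists and tests were chosen with earlier results of these data known. Leaving out control 43 and treatment 32 together was added after seeing the data.

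Alternatives were another added constant (1 or 64), quantile normalization, median centring, no filter or the 60th percentile, no or a robust variance trend, the 6 compared arrays alone, the mean of probe sets, a replicate block and each array left out. Figures were drawn with matplotlib 3.10.9.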

Additional observations from a re-analysis of the deposited data

How the results depend on the processing

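Of 524 values of single genes under alternatives, 503 kept direction and side of the threshold, 10 lost and 4 gained it, and 7 reversed. The Sox7 call in treatment against control, the only one among the 35 genes, became 0 calls with quantile normalization, with no filter, with a replicate block on the final digit of array names (Sox7 adjusted p = 0.116 in limma) and with control 43 and treatment 32 both left out. Same-numbered arrays did not deviate together (correlations from -0.408 to 0.311), so the numbers were not taken to pair arrays. Over all genes, treatment against control gave 56 calls, 19 higher and 37 lower, and 27 with the replicate block, 538 with both arrays left out, and 27 higher and 28 lower with quantile normalization. Model against control gave 3 calls, 1 with no filter, 1 with the 6 compared arrays alone and 1303 with both left out; the 35 genes then held 6 calls, and their median in treatment against control was 0.10.

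Leaving out each array in turn gave 0 to 1 calls among the 35 genes for model and for treatment against control, and 0 for treatment against model. Over all genes it gave 0 to 1384 (without control 43), 0 (without treatment 33) to 720 (without control 43) and 0 to 3 (without model 23). The median of the 35 genes ran from -0.02 to 0.36, from -0.52 to -0.09 and from -0.69 to -0.23. In model against control, Tie1 ran from -0.059 (without control 41; -0.0029 without control 42) to 0.42 and Angpt2 from -0.076 (without control 41; -0.0196 without control 42) to 0.54. In treatment against control, Tek, Tie1 and Angpt2 reversed to 0.226, 0.0564 and 0.0975 with both arrays left out. The cause of these changes was not tested. The ratio of Angpt2 to Angpt1 was not run, because Angpt1 was below the minimum signal on all 9 arrays.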

Other observations

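The genes below were chosen after their values were seen. Among all genes tested, Fam111a, a replication-linked protease, had the largest drop in treatment 32 against treatment 31 and treatment 33. Its intensity was 17.0, 8.40 and 8.98 in control arrays and 292, 254 and 261 in model arrays, while treatment 31, treatment 32 and treatment 33 gave 295, 7.14 and 448. Treatment 32 thus had the level of the controls for this gene. Other genes low in treatment 32 were Pi16, Il33 and Apoe. Pi16, a fibroblast gene, was at 76.0 there, where the other arrays ran from 172 to 525. Il33, an alarmin, was at 36.0, where the others ran from 82.1 to 319. Apoe, an apolipoprotein, was at 155, where the others ran from 407 to 1862.

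Differences in the other direction were largest for Mmp7 and Cuzd1. Mmp7, an epithelial metalloproteinase, was at 378 in treatment 32, and at 32.9 and 17.0 in treatment 31 and treatment 33. Control 41 and control 42 gave 4111 and 3779 for it and control 43 gave 706. Cuzd1, a gene of uterine and pancreatic epithelium, was at 961 in treatment 32, at 145 and 66.3 in the other treatment arrays, at 3284 and 2963 in control 41 and control 42, and at 18.3 in control 43.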
